A study of Mus musculus with 2 samples.

Results

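The keratin and keratin-associated protein genes are examined here in the H3K27me3 peak lists of MEL cells. Members are the protein-coding genes of the GENCODE mouse annotation (release 21, GRCm38) whose symbol starts with Krt and a digit, or with Krtap. They number 110 of 21911 protein-coding genes, 53 of them keratins (Krt) and 57 keratin-associated protein genes (Krtap). MEL is an immortalised mouse erythroleukaemia line, a blood cell line and not an epithelium. Trimethylation of histone H3 at lysine 27 was mapped by ChIP-seq in 2 biological replicates, which form 1 group with no treatment or second genotype named in the labels. The labels do not say whether separate cultures gave the replicates, and differences between them may then be technical only. Both were called against 1 shared control, and the replicated list, used first throughout, was derived from each replicate's own list and a pooled list.

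Keratins form the intermediate filaments of epithelial cells as pairs of an acidic type I and a basic type II protein. In the mouse the type I genes lie side by side on chromosome 11 and the type II genes on chromosome 15, with the type I gene Krt18 at the end of the type II cluster. Keratin-associated proteins are small proteins that embed the keratin filaments of the hair cortex. H3K27me3 is laid down by Polycomb repressive complex and is found over many silent genes, often as broad domains.

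The sequences below come from the 2 sides of the border at which H3K27me3 peaks stopped inside the type I cluster. The promoters are the RefSeq windows (build GRCm38.p6) that reach 250 bases before and 50 bases after the start, printed 5′ to 3′ on the minus strand, on which these genes lie. Krt24 (chr11:99285213-99285512), Krt28 (chr11:99374854-99375153) and Krt10 (chr11:99389315-99389614) had a replicated peak at the start, within 1 kb, and Krt12 (chr11:99422210-99422509) is the next keratin gene and had none. The last sequence is the lone replicated peak between Krt12 and Krt42, on the plus strand (chr11:99461371-99461534). This peak met a peak of replicate 2's own list but none of replicate 1's. Its −log10 q was 0.53, and the assembly marks 41.5% of its bases as repeats. Capitals mark bases inside a replicated peak, 187 in the Krt24 window, 48 in the Krt28 window, 0 in the Krt10 and Krt12 windows, and all 164 of the lone peak.
Krt24 promoter: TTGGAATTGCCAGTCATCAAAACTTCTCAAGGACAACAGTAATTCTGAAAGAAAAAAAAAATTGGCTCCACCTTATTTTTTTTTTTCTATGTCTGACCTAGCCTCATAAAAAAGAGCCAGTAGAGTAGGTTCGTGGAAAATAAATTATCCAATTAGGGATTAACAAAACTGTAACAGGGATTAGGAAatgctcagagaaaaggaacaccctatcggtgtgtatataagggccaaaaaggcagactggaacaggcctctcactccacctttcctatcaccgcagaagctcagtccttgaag
Krt28 promoter: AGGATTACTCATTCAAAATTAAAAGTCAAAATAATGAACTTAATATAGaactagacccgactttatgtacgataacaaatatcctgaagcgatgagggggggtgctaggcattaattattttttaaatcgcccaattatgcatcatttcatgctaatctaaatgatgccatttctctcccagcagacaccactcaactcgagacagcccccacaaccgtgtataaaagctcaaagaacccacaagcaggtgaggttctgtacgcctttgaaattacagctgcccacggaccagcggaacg
Krt10 promoter: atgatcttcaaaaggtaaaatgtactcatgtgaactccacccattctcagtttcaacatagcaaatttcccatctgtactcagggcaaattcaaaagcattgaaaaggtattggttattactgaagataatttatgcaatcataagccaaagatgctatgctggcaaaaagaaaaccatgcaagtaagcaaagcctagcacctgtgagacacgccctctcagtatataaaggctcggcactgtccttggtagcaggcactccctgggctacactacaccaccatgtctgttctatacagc
Krt12 promoter: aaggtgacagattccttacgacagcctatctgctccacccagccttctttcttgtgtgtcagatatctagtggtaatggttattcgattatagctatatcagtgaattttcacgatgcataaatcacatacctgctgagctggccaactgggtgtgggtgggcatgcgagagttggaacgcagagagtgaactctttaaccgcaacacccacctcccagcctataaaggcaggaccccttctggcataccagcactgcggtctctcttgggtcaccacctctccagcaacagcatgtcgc
Lone peak: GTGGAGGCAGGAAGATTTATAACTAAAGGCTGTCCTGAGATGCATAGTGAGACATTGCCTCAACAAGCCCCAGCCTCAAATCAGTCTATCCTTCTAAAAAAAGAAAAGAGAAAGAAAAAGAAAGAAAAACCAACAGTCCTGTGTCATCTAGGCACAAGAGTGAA

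The capitals show that the replicated peaks at Krt24 and Krt28 stopped upstream of the gene start. In the Krt10 window no base was covered, and its peaks lay further out. The letters TATAAA, a form of the TATA box motif, stood on the strand of the gene 30 bases before the start of Krt28. They stood 26 bases before that of Krt10 and 29 bases before that of Krt12. The Krt24 window did not hold these exact letters but does hold tatataag. Other forms of the TATA box were not searched. Of the 87 members with a promoter in the RefSeq table, 61 held TATAAA on either strand (70.1%), against 2116 of 16522 protein-coding genes (12.8%), with 1 window a gene. The motif was in 42 of 51 Krtap windows (82.4%) and 19 of 36 Krt windows (52.8%). Median GC content was 44.7% in member windows and 57.0% in all windows, and the median number of CpG dinucleotides was 3 in member windows and 14 in all windows. A match is a description of letters and does not show that a factor bound.

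Few keratin genes had a peak at the start, and those that did lay together. A start was called where at least 1 bp of a peak fell no more than 1 kb from the outermost 5′ end of the gene. In the replicated list 4 of 110 members were called (3.64%), against 3.0% of all protein-coding genes. Replicate 1's own list called 8 members (7.27%), against 4.46% of all genes, and replicate 2's own list called 12 (10.9%), against 6.28%. All 4 of the replicated calls were type I keratins, Krt222, Krt24, Krt28 and Krt10, and no Krtap gene was among them. Both replicates called 6 members (5.45%), against 3.14% of all genes, and at least 1 of them called 14 (12.7%), against 7.59%. Counts followed the size of the lists, with 106995 peaks in replicate 2, 70901 in replicate 1 and 38298 in the replicated list. The replicated share is close to that of all genes, and the member share varied more between lists than it differed from the background in any of them.

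Over gene bodies the count of members was below that of all genes while the covered share of bases was above it. In the replicated list a peak lay in the body of 7 of 110 members (6.36%), against 11.5% of all protein-coding genes, and members are short, with a median length of 2350 bp against 17433 bp. The replicated peaks covered 9413 of the 462735 body bases of the members (2.03%), against 0.524% of the body bases of all genes. The share of member bases was 2.02% in replicate 1 and 2.77% in replicate 2. Of the 9413 bases, 8996 lay in 6 neighbouring genes of the type I cluster and 417 in Krt18. Bodies of the type I cluster were covered at 4.60% in the replicated list, against 1.56% for all genes of chromosome 11. Bodies of the type II cluster were covered at 0.186%, against 0.786% for all genes of chromosome 15. For 90 of 110 members no list of a replicate, nor the replicated or pooled list, placed a peak at the start or in the body (81.8%), against 76.8% of all genes.

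The type I cluster split into a marked end and an unmarked rest. It spans chr11:99232761-100269871, with 50 members, 27 of them keratins and 23 keratin-associated genes that form 1 unbroken run. Over the whole cluster 1.76% of bases lay in replicated peaks, against 1.90% of chromosome 11, and 410 of 1190 circular shifts of the cluster along that chromosome (34.5%) covered as much or more. Shifts moved the peaks in steps of 100 kb around the chromosome from 3 Mb on, so they kept the clustering of peaks, and their share is a description with no p-value. Starts were called for 4 of 50 genes (8.00%), against 6.54% of the genes of chromosome 11. A peak lay in the body of 6 of the 50 (12.0%), against 18.2% of the genes of chromosome 11.

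**Figure D1:**
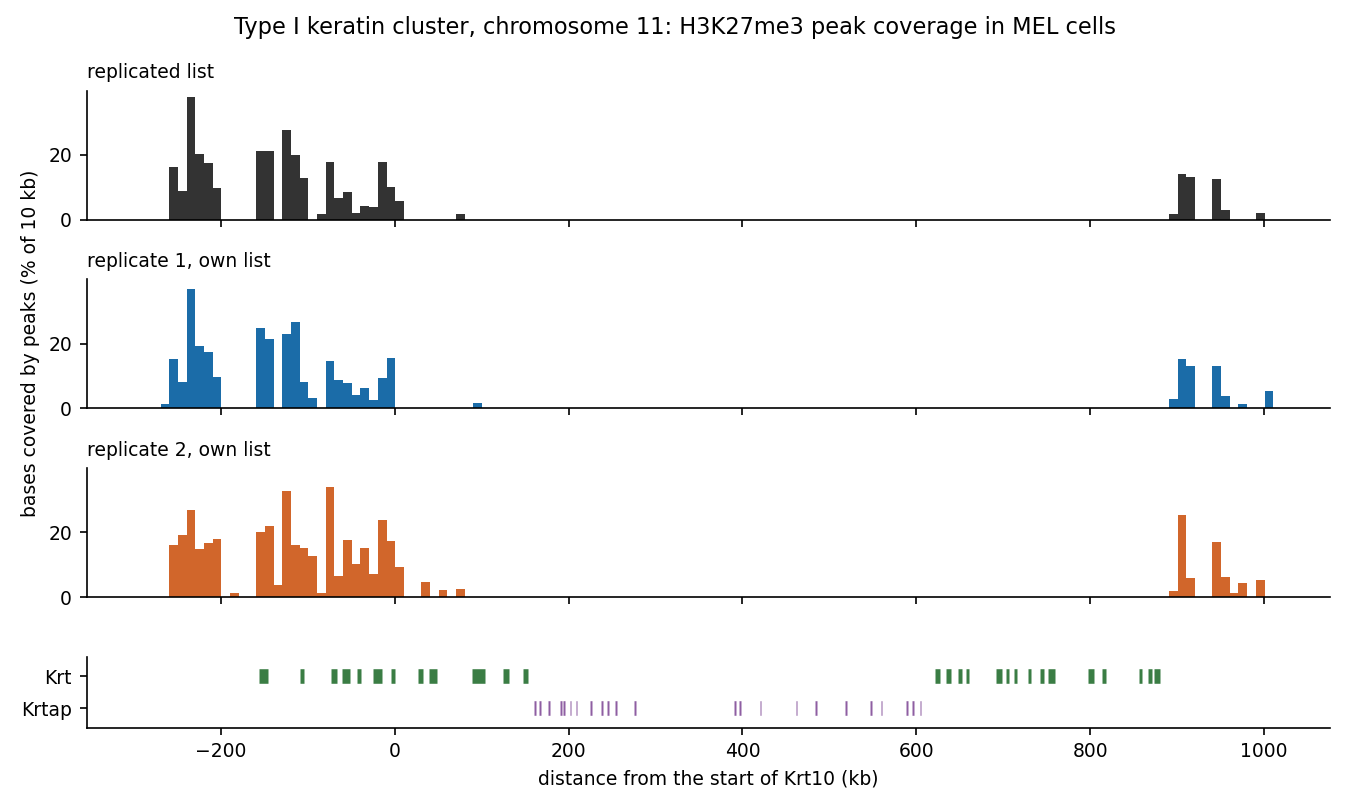
Percent of each 10-kb bin covered by H3K27me3 peaks along the type I cluster, by distance in kb from the start of Krt10, in the replicated list and in each replicate's own list; blocks at the bottom are Krt and Krtap genes, drawn at least 2 kb wide. Peaks lie in most bins between Krt222 and Krt10, 1 replicated peak lies between Krt12 and Krt42, the Krtap run holds 0 peaks in the 3 lists, and peaks resume past Krt42.

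From Krt222 to Krt10 (chr11:99232761-99389364), 52 replicated peaks covered 11.2% of 156604 bp. Replicate 1 had 71 peaks over 11.04% there, and replicate 2 had 107 peaks over 16.4%. As many or more bases were covered in 60 of 1190 shifts (5.04%) for the replicated list, 61 for replicate 1 and 36 for replicate 2. The bounds of this stretch were chosen after its values were seen, so these shares are a description only. The run of peaks was 157 kb long in each of the 3 lists, with its ends at Krt222 and just past the start of Krt10. Of its 52 replicated peaks inside these bounds 6 had a −log10 q of at least 2, the highest at 2.87, and 31 of 71 did in replicate 1 and 16 of 107 in replicate 2.

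The 7 genes of the stretch differed in how much of each was covered. Krt222, at the outer edge (chr11:99232761-99244085), had 27.4% of its body in replicated peaks, 29.1% in replicate 1 and 29.1% in replicate 2. Krt10 (chr11:99385254-99389364), the type I keratin of the upper epidermal layers and partner of Krt1, had 24.6% in replicated peaks, 27.1% in replicate 1 and 29.8% in replicate 2. In both genes the replicates' own lists differed by less than 3 percentage points.

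Between them lie Krt24 and the keratins of the inner root sheath of the hair follicle, Krt25, Krt26, Krt27 and Krt28. Krt25 had 19.1% of its body in replicated peaks, 17.5% in replicate 1 and 26.2% in replicate 2. For Krt26 the share was 15.96% in replicated peaks, 17.6% in replicate 1 and 17.4% in replicate 2. In Krt24 it was 12.6% in replicated peaks, 7.05% in replicate 1 and 25% in replicate 2, the widest spread between replicates of the 7 genes. Krt28 had 12.9% in replicated peaks, 5.19% in replicate 1 and 11.7% in replicate 2. The body of Krt27 was free of peaks in the 3 lists, although it lies between Krt26 and Krt28, both covered.

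**Figure D2:**
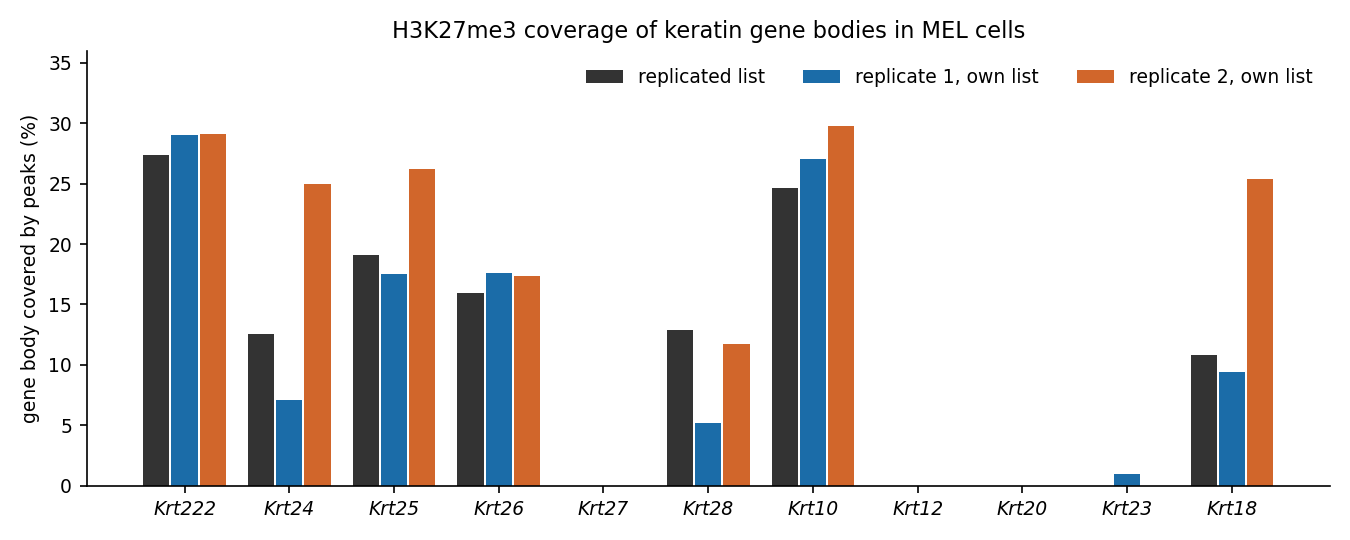
Percent of the gene body covered by H3K27me3 peaks for the genes of the marked stretch (Krt222 to Krt10), the next 3 keratin genes of chromosome 11 (Krt12, Krt20, Krt23) and Krt18 of the type II cluster, in the replicated list and each replicate's own list; each bar is 1 list and there is no error bar. Krt222 and Krt10 reach 24.6 to 29.8%, Krt27, Krt12 and Krt20 are at 0, and Krt23 has a value in replicate 1 only.

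At the starts of these genes the peaks flanked the annotated start and did not hold it. Of the window around the start of Krt10, 460 bases were covered by replicated peaks, 479 by peaks of replicate 1 and 520 by peaks of replicate 2. The replicated peaks nearest to its start lay 472 to 888 bp downstream and 964 to 1211 bp upstream, so peaks stood on both sides. Krt24 had 415 replicated bases, 432 in replicate 1 and 630 in replicate 2, and its replicated peak lay 64 to 478 bp upstream. Replicate 2's own list also had peaks downstream of the Krt24 start, the nearest at 2 to 153 bp. Krt28 had 233 bases in replicated peaks, 410 in replicate 1 and 202 in replicate 2, upstream as well. Krt222 had 397 bases in replicated peaks, 362 in replicate 1 and 299 in replicate 2, in a replicated peak 162 to 558 bp downstream. Each of these 4 starts was called in the 3 lists. Krt25, Krt26 and Krt27 had no base of the window covered in the replicated list, and Krt27 was called in both replicates' own lists, with 111 bases in replicate 1 and 140 in replicate 2. The start base itself lay in a peak for 0 of 110 members in the replicated list and in each replicate's list, against 109 of 21911 genes for replicated peaks, 118 in replicate 1 and 195 in replicate 2. In the replicated list that is 0 of the 4 members called at the start, against 109 of the 658 genes called. The pooled list covered the start base of 1 member, against 153 of all genes.

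The keratin genes beyond Krt10 were almost bare. From Krt12, a keratin of the cornea, to Krt42 (chr11:99415666-100269871) lie 43 members, and the 854206 bp held 1 replicated peak of 164 bases, 1 peak of 152 bases in replicate 1 and 4 peaks with 948 bases in replicate 2. No start was called in any list for the 43 genes. Among all genes of chromosome 11 the called share was 6.54% with replicated peaks. It was 8.98% with replicate 1's own peaks and 11.5% with those of replicate 2. A count of 0 was not rare, since 425 of 1190 shifts (35.7%) of the replicated peaks called no start either. So did 280 shifts of replicate 1's peaks and 229 of replicate 2's. The sole body overlap was 152 bases in Krt23 in replicate 1, from a peak with a −log10 q of 0.41. As few bases or fewer were covered in 215 of 1190 shifts (18.1%) for the replicated list, 143 for replicate 1 and 206 for replicate 2, so such thin coverage over this length was not rare on the chromosome.

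A peak-free stretch of 828 kb (chr11:99461535-100289756), which began between Krt20 and Krt23 and ended past Krt42, held 41 members and 59 protein-coding genes in all. It was the 29th longest of 6097 peak-free stretches of chromosome 11 in the replicated list, where the longest was 3281 kb with 7 protein-coding genes. Replicate 1 left 808 kb free of peaks there and replicate 2 left 828 kb. The stretch takes in Krt14, the basal-layer partner of Krt5, whose start lay 82209 bp from the nearest replicated peak, 82008 bp from one in replicate 1 and 82214 bp in replicate 2. Krt19, a keratin of simple epithelia, was 141092 bp from a replicated peak, 140891 bp from one in replicate 1 and 141097 bp in replicate 2. Krt20, of the gut epithelium, was nearer, at 23221 bp from a replicated peak, 43490 bp in replicate 1 and 5038 bp in replicate 2. The 23 Krtap genes of chromosome 11, Krtap3-3 to Krtap17-1, span 443865 bp with 0 peaks in the 3 lists, as did 355 of 1190 shifts (29.8%) in the replicated list. The 18 other protein-coding genes inside the type I cluster also had no base at the start or in the body.

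The genes next to the type I cluster on either side had no peaks, and those one step further had some. Smarce1, a chromatin remodelling subunit and the next gene beyond Krt222, had no base covered in the 3 lists. Past it Ccr7, a chemokine receptor, had 14.4% of its body in replicated peaks, 14.5% in replicate 1 and 17.4% in replicate 2. On the far side of Krt42, Eif1, a translation initiation factor, had no base covered, although peaks resumed between Krt42 and Eif1. Gast, the gastrin gene and the next after Eif1, had 9.69% of its body in replicated peaks, 15.8% in replicate 1 and 17.3% in replicate 2. Jup, which encodes plakoglobin and lies further out, had 0.694% in replicated peaks, 1.81% in replicate 1 and 1.80% in replicate 2.

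How unique the sequence is was measured as the share of 32-base words that occur once on the chromosomes of the assembly. That share was 91.6% from Krt222 to Krt10, 86.7% from Krt12 to Krt42 and 80.1% in the chromosome 11 Krtap run, against 88.7% on chromosome 11. The 2-kb start windows had a median of 95.6% in the 7 genes of the marked stretch, 96.4% in the 20 keratins beyond it and 88.3% in the 23 Krtap genes. No base of any cluster was unknown in the assembly. Bases that the assembly marks as repeats made up 31.4% from Krt222 to Krt10, 25.4% from Krt12 to Krt42 and 29.9% of the Krtap run, against 30.5% of chromosome 11. The read length is not given in the sources used here, so the share of positions to which reads could be assigned was not measured.

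In the replicated list the type II cluster was covered less than chromosome 15 as a whole, but more than its median shift. It spans chr15:101347444-102032027, with 26 members from Krt80 to Krt18, and its 12 replicated peaks held 0.429% of its bases, against 0.866% for chromosome 15. Replicate 1's 34 peaks covered 0.865%, against 1.02% of the chromosome, and replicate 2's 55 peaks covered 1.62%, against 1.46%. As much or more was covered in 342 of 1010 shifts (33.9%) for the replicated list. The median shift covered 0.0693% in that list, 0.183% in replicate 1 and 0.349% in replicate 2, less than the cluster in each. No start was called among the 26 in the replicated list, against 5.48% of the genes of chromosome 15, while replicate 1 called 1 (3.85%), against 7.53% of those genes, and replicate 2 called 3 (11.5%), against 9.69%. None of the 12 replicated peaks reached a −log10 q of 2, a limit that 10.9% of all replicated peaks reached.

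**Figure D3:**
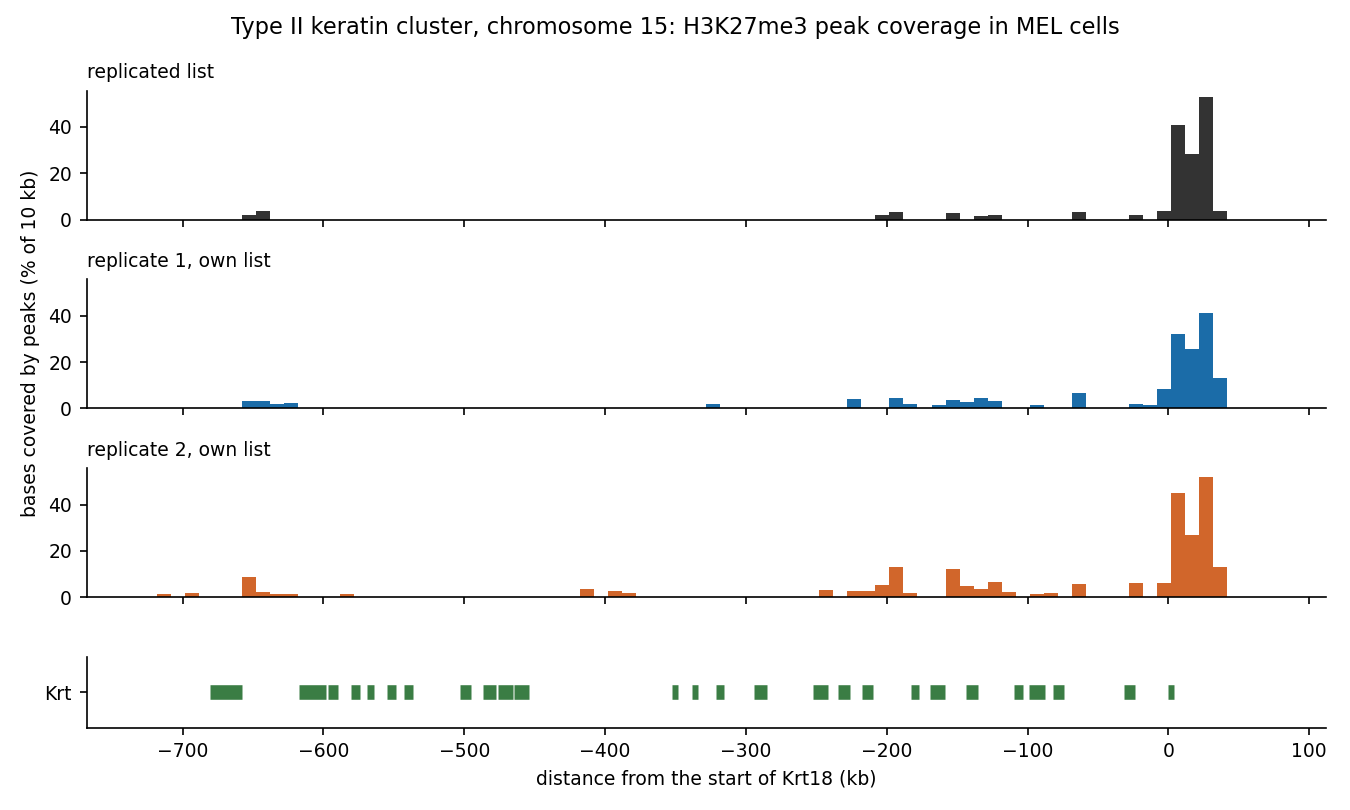
Percent of each 10-kb bin covered by H3K27me3 peaks along the type II cluster, by distance in kb from the start of Krt18, in the replicated list and in each replicate's own list; blocks at the bottom are keratin genes. Coverage stays low over the other keratins and is highest past the end of Krt18, outside the cluster, at 53.1% in the bin at 26.8 kb in the replicated list. From the start of Krt18 up to Eif4b 27.9% of the 45593 bp is covered in that list.

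Krt8 and Krt18, the keratin pair of simple epithelia, lie at the end of the cluster, and the strongest coverage lay past it. Krt18 (chr15:102028180-102032027) had 10.8% of its body in replicated peaks, 9.41% in replicate 1 and 25.4% in replicate 2, and only replicate 2 placed a peak at its start, over 157 bases. It was the sole member of the cluster with a replicated peak in its body. Between the start of Krt18 and that of Eif4b, a translation initiation factor, 29 replicated peaks covered 27.9% of 45593 bp, with 24.9% in replicate 1 and 30.2% in replicate 2. Of the 12716 bases in these replicated peaks, 417 lay in the body of Krt18, and the rest lay outside the cluster. Over the 23697 bp on the other side, up to the end of Krt8, the share was 1.92% in replicated peaks, 4.24% in replicate 1 and 4.87% in replicate 2. Krt8 had no base of its body covered in the 3 lists and a start call of 140 bases in replicate 2 only. Eif4b itself had no base covered. These bounds were chosen after the values were seen.

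The remaining type II genes had no base of the body in replicated peaks, and few bases in the replicates' own lists. From Krt72 to Krt8 the covered share was 0.647% in replicated peaks, 1.48% in replicate 1 and 2.91% in replicate 2. From Krt80 to Krt71 it was lower, at 0.148% in replicated peaks, 0.301% in replicate 1 and 0.584% in replicate 2. Krt1, the type II partner of Krt10, had no base in replicated peaks, 169 bases of its body in replicate 1 and 164 in replicate 2. Krt76 had 140 body bases in replicate 1 and 160 in replicate 2, and Krt79 had 140 in each, so these 3 genes were covered in both replicates' lists. Krt2, a keratin of the upper epidermis, was called at the start in replicate 2 only and Krt77 in replicate 1 only, each over 140 bases. Krt5, the partner of Krt14, and Krt7, of simple epithelia, had no covered base at the start or in the body in the 3 lists. Krt80, the first gene of the cluster, had none either.

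The keratin-associated genes outside chromosome 11 differed by cluster. The cluster on chr16:88610705-89571183, 24 genes from Krtap24-1 to Krtap11-1 over 960479 bp, held 0 peaks in the replicated list and in each replicate's own list, and 1.66% of the genes of chromosome 16 were called at the start. In the replicated list 415 of 952 shifts (43.6%) were empty too, in replicate 1 226 and in replicate 2 176, so an empty stretch of this length was not rare there. It lay in a peak-free stretch of 3295 kb between replicated peaks, 2030 kb in replicate 1 and 1885 kb in replicate 2, the 8th longest of the chromosome in each of the 3 lists. The share of 32-base words found once was 83.6% in this cluster and 86.4% on chromosome 16.

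In the replicated list the peaks of the Krtap5 cluster on chromosome 7 lay between its genes, whose bodies are a small part of it. Its 5 genes, Krtap5-2 to Krtap5-4 (chr7:142174535-142304594), lie among 21 replicated peaks that covered 4.83% of 130060 bp, against 0.314% of chromosome 7. Replicate 1 covered 5.64%, against 0.417% of the chromosome, and replicate 2 covered 6.86%, against 0.624%. As much or more was covered in 16 of 1424 shifts (1.12%) for the replicated list, 14 for replicate 1 and 17 for replicate 2. The coverage was not particular to the cluster, since with 100 kb added on each side it was also 4.83% in the replicated list. Of the neighbours, Dusp8 had 4.40% of its body in replicated peaks and Ifitm10 3.05%. The other genes within 100 kb had no body base in replicated peaks. The replicated list called 0 of the 5 starts, against 1.83% of the genes of chromosome 7, and covered no base of the 5 bodies. These bodies make up 6131 of the 130060 bp. With so few genes and body bases, a count of 0 is not read as a result about the genes. The cluster also holds 5 other protein-coding genes with Gm symbols, none with a covered body base in the 3 lists, and 1 of them, Gm7579, was called at the start in each list. Of the 21 replicated peaks 1 had a −log10 q of at least 2 (4.76%), against 10.9% of all replicated peaks, and at that limit coverage was 0.221%.

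Each replicate called 2 of the 5 Krtap5 starts in its own list, against 3.32% of the genes of chromosome 7 in replicate 1 and 4.70% in replicate 2. Krtap5-1 was called in both, with 282 bases in replicate 1 and 41 in replicate 2. Krtap5-5 was called in replicate 1 only, over 159 bases, and Krtap5-4 in replicate 2 only, over 104, with 149 bases of its body covered there. The nearest replicated peak lay 1134 bp from the start of Krtap5-4, 1323 bp from that of Krtap5-1, 2465 bp from Krtap5-5, 3272 bp from Krtap5-2 and 6662 bp from Krtap5-3. The share of 32-base words found once was 73.8% in this cluster, against 78.6% on chromosome 7, and its start windows had a median of 60.4%, the lowest of the clusters. The 5 Krtap genes outside the clusters, on chromosomes 1 and 10, had no base covered at the start or in the body in the 3 lists.

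**Figure D4:**
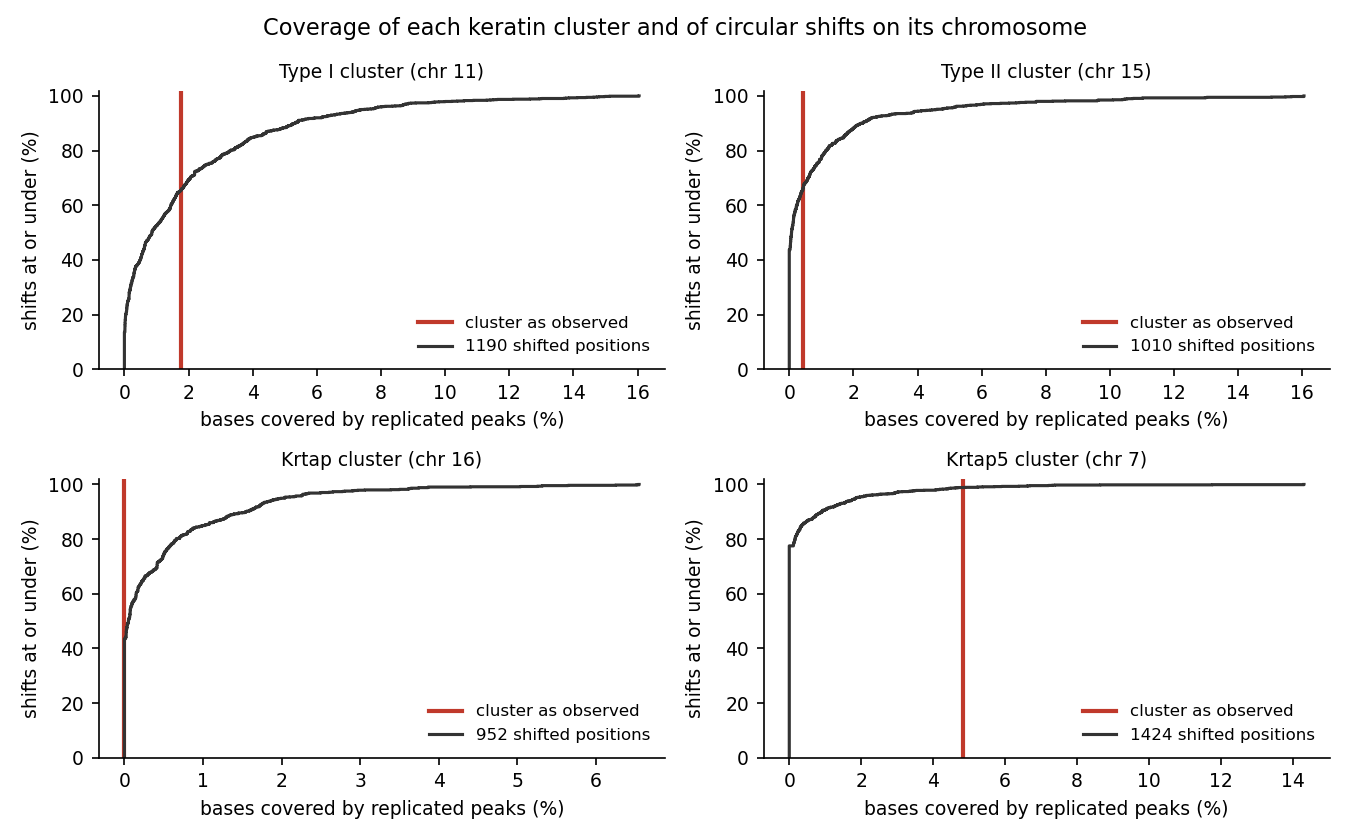
For each of the 4 keratin clusters, the percent of bases covered by replicated peaks (x axis) in the cluster as observed (red line) and the percent of circular shifts at or under each value (black curve). The type I and type II clusters sit inside the curve, with 34.5% and 33.9% of shifts covering as much or more, the chromosome 16 cluster is at 0, and the Krtap5 cluster lies near the top, with 1.12%.

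The replicates shared more of their peaks in the type I cluster than in the type II cluster. In the whole type I cluster 58.9% of replicate 1's peaks and 39.5% of replicate 2's met a peak of the other. The bounds of the marked stretch were chosen after its replicated peaks were seen, and that list derives from both replicates. A high overlap there was thus partly set by the choice. From Krt222 to Krt10, 43 of 71 peaks in replicate 1 met a replicate 2 peak (60.6%), and 45 of 107 in replicate 2 met a replicate 1 peak (42.1%). Over all chromosomes these shares were 44.9% of replicate 1's peaks and 29.8% of replicate 2's. In the type II cluster 8 of 34 peaks of replicate 1 (23.5%) and 8 of 55 of replicate 2 (14.5%) overlapped. In the Krtap5 cluster the shares were 44.4% of replicate 1's 36 peaks and 35.0% of replicate 2's 40.

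Starts called in 1 replicate only were 8 in all, and the 5 with the highest of the authors' signal values are given. At least 1 replicate called 14 of 110 members (12.7%), against 7.59% of all genes. Both called 6 (5.45%), against 3.14%. The highest was at Krt26 in replicate 2, with a signal of 4.91 and a −log10 q of 2.58. Krt18 in replicate 2 had a signal of 4.14 and a −log10 q of 1.35, as did Krtap5-4, and Krtap5-5 in replicate 1 had 3.61 and 0.891. Krt25 in replicate 2 followed with 3.32 and 0.800.

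Of other gene lists of epithelia, 1 or 2 genes a list were called in the replicated list, where 3.0% of all genes were called. Of 16 other intermediate filament genes 1 was called in the replicated list (6.25%), Sync, which encodes syncoilin, with 194 replicated bases in its window, 0 in replicate 1 and 683 in replicate 2. Of 51 cornified envelope genes 2 were called (3.92%), the transglutaminase gene Tgm3 and the envoplakin gene Evpl, and of 33 genes of desmosomes and epithelial junctions 1 was called (3.03%), the desmoglein gene Dsg4. Neither Tgm3 nor Dsg4 had a covered base in replicate 1, and in replicate 2 the desmosome and junction list had 8 of 33 starts called (24.2%), where 6.28% of all genes were called, and in replicate 1 it had 1 of 33, where 4.46% were. Evpl was called in both replicates' own lists as well, with 239 bases in replicated peaks, 248 in replicate 1 and 371 in replicate 2. Among 26 transcription factors of epidermis and hair 2 were called (7.69%), the vitamin D receptor gene Vdr and the forkhead gene Foxn1. Vdr had 1261 replicated bases, 1427 in replicate 1 and 1181 in replicate 2, more than any keratin start. Foxn1 had 292 replicated bases, 480 in replicate 1 and 740 in replicate 2. Hoxc13, a hair regulator, was called in replicate 2 only, over 154 bases, and Lhx2 in replicate 1 only, over 474.

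A few limits apply to all of these values. Read counts are not part of the lists, so the depth is unknown and counting intervals are left out. Bases with no peak may still carry the mark. None of the 4 replicated start calls had a peak with a −log10 q of at least 2, a limit that 10.9% of all replicated peaks reached. With so few starts this is not read as a result about them. In the own lists of replicates 1 and 2, peaks at the start reached 3.40 and 2.58 at Krt222 and 3.38 and 2.58 at Krt10. At Krt24 the limit was reached in replicate 1 only (2.04), and at Krt28 in neither.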

How the data were processed

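Peak lists for mm10 were used as the authors deposited them. Per the deposited descriptions, each replicate's peaks were called on its own alignments against 1 shared control, and the replicated list was derived from both replicate lists and a pooled list. Not given in the sources used here are the aligner, the caller and the rule for keeping peaks. The signal value is a score deposited by the authors whose definition is not stated, and each peak carries a deposited −log10 p and −log10 q. The mm9 list was not used.

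Peaks were joined by union, and covered bases were counted in Python 3.11.15 with numpy 2.4.6 over genes, clusters and start windows. Clusters are runs of at least 5 members with gaps under 1 Mb. Words of 32 bases were counted with numba 0.67.0, at every base of clusters and start windows and every 50 bases over whole chromosomes. The code was tested on simulated data.

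Members and lists were chosen with earlier results of these data known. Named genes are those with a replicated peak at the start, the 10 most covered, the 5 with the highest signal at a start called in 1 replicate only, keratins of simple, basal and upper layers, the ends of each cluster, and marked genes of 4 other lists; Krt23, Krt77, Krt2 and the neighbours were added after their values were seen. The alternatives were another list, stricter peaks, other windows and starts, other bounds, joined peaks and other shifts.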

Additional observations from a re-analysis of the deposited data

How the results depend on the processing

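No paired analysis was possible because the series has 1 group. The count of members called at the start, 4 in the replicated list, was 8 to 12 in the replicates' own lists, 0 at a −log10 q of at least 2, 1 in the upper 50% of peaks by signal value, 11 with 2.5 kb on each side and 0 with 500 bp covered. Body coverage, 2.03%, was 2.67% in the pooled list, 2.02 to 2.77% in the replicates, 0.424% at the q limit and 1.39% in the upper 50%. Type I coverage, 1.76%, was 1.70 to 2.65% in the replicates, 0.261% at the q limit, 0.999% in the upper 50%, 2.69% with 100 kb added on each side and 5.46% with peaks joined within 3 kb. Its share of shifts, 34.5%, was 36.6 to 41.1% in the replicates, 38.4% at the q limit, 24.96% with added bounds and 27.6% when joined. Its called starts, 4, were 5 to 7 in the replicates, 0 at the q limit and 1 in the upper 50%. Type II coverage, 0.429%, was 0.865 to 1.62% in the replicates and 1.72% with added bounds. Its share of shifts, 33.9%, was 30.3% in the pooled list, 28.6 to 30.9% in the replicates, 100% at the q limit, where no peak was left, 35.6% in the upper 50% and 12.9% with added bounds. Its called starts, 0, were 1 to 3 in the replicates and 2 with 2.5 kb. Krtap5 coverage, 4.83%, was 6.58% in the pooled list, 5.64 to 6.86% in the replicates, 0.221% at the q limit, 3.02% in the upper 50% and 9.78% when joined. Its share of shifts, 1.12%, was 4.71% at the q limit, 1.54% in the upper 50%, 2.82% with steps of 1 Mb, 0.632% with added bounds and 1.83% when joined. Its called starts, 0, were 1 in the pooled list, 2 in each replicate and 3 with 2.5 kb. The cause of these differences was not tested. The chromosome 16 cluster kept 0 peaks and 0 starts in the alternatives run. Type II coverage was below that of chromosome 15 in the replicated list and above it in replicate 2, and type I coverage was above that of chromosome 11 with added bounds.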
